A study of Mus musculus with 160 samples.

Results

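Messenger RNAs of 10 respiratory genes encoded by the mouse mitochondrial genome were followed across 5 tissues and 4 treatment arms. The members were taken by name (mt-Nd1, mt-Nd2, mt-Nd4, mt-Nd5, mt-Nd6, mt-Cytb, mt-Co1, mt-Co2, mt-Co3 and mt-Atp6), with Ensembl gene identifiers matched to symbols, and all 10 were found among the 43432 genes measured and passed the filter on low counts in each tissue. The study compared Wild Type mice with R6/2 mice, which carry Tg(HDexon1)62Gpb, a transgene of human huntingtin exon 1 used as a model of Huntington's disease. All mice were on a C57BL/6J background. Wild-type mice were dosed with vehicle, and R6/2 mice were dosed by mouth 2 times daily with vehicle or with CHDI-00390576, a class IIa histone deacetylase inhibitor, at 30 or 100 mg/kg. Each arm held 8 mice, 4 male and 4 female, and each of the 32 mice gave 1 library from each of 2 brain regions (cortex and striatum), a hindlimb muscle (tibialis), heart and liver, 160 libraries in all. No wild-type mouse received the compound, so its effect without the transgene was not measured, and ages are not in the labels used here.

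The mitochondrial genome is a small circular DNA, present in many copies per cell, that encodes core subunits of the respiratory chain together with the ribosomal and transfer RNAs needed to translate them. Both strands are transcribed as long precursors that are cut into single RNAs, mostly at the transfer RNAs lying between the coding genes. Heart and oxidative muscle are known for high levels of these RNAs. The enzymes that copy, transcribe, process and translate the mitochondrial genome, and most subunits of complexes I, III, IV and V, are encoded in the nucleus.

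All 37 mitochondrial genes of the annotation were in the count table, 13 of them protein genes, 22 transfer RNA genes and 2 ribosomal RNA genes. Coordinates are from GRCm38. Complex I, the NADH dehydrogenase, was represented by mt-Nd1 (chrM:2751-3707), mt-Nd2 (chrM:3914-4951), mt-Nd4 (chrM:10167-11544), mt-Nd5 (chrM:11742-13565) and mt-Nd6 (chrM:13552-14070). Complex III was represented by mt-Cytb (cytochrome b, chrM:14145-15288), and complex IV, the cytochrome c oxidase, by its catalytic core genes mt-Co1 (chrM:5328-6872) and mt-Co2 (chrM:7013-7696) and by mt-Co3 (chrM:8607-9390). Complex V, the ATP synthase, was represented by mt-Atp6 (chrM:7927-8607), which encodes part of its proton channel. The plus strand carries 9 of the members as coding sequence, and mt-Nd6 is the only one on the minus strand. mt-Nd5 and mt-Nd6 overlap by 14 bases at their 3′ ends. The last 60 bases of both are printed 5′ to 3′ on their own strands to show this overlap, in capitals, since a read from the overlap could be counted for either gene where strand was not used, and the counting strand is not given in the sources used here. Reads from mt-Nd6 and from the antisense of its locus therefore cannot be told apart.
mt-Nd5, chrM:13506-13565, plus strand: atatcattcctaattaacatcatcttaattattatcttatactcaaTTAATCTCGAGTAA
mt-Nd6, chrM:13552-13611, minus strand: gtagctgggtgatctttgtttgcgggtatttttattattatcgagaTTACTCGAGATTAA

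A stretch of mitochondrial sequence inserted in nuclear chromosome 1 (chr1:24611535-24616197, minus strand) holds annotated copies of 5 members that reads could be assigned to instead. Gm28437 matched mt-Co3 over 783 bases, Gm28661 matched mt-Co2 over 681 bases, Gm10925 matched mt-Atp6 over 678 bases and Gm28439 matched the first 876 bases of mt-Nd4, each at 100% identity. Gm29216 matched the last 483 bases of mt-Co1 with 1 mismatch, at position 1066 counted from the first base of mt-Co1. No copy of at least 99% identity over 150 bases was found for mt-Nd1, mt-Nd2, mt-Nd5, mt-Nd6 or mt-Cytb. The first 90 bases of mt-Co3 and of its copy are printed to show that they are the same, and a 60-base stretch of mt-Co1 and its copy to show the single mismatch, in capitals.
mt-Co3, chrM:8607-8696, plus strand: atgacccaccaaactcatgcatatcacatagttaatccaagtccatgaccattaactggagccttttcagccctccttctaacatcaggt
Gm28437, chr1:24613882-24613971, minus strand: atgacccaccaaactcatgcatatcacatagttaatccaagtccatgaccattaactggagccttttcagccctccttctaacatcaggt
mt-Co1, chrM:6390-6449, plus strand: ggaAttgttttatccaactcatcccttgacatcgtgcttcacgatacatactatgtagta
Gm29216, chr1:24616129-24616188, minus strand: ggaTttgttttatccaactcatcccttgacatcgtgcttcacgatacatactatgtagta
Each result on mt-Nd4, mt-Co1, mt-Co2, mt-Co3 and mt-Atp6 is therefore uncertain as deposited, and it was computed again with the counts of these copies added to their member ("copies added").

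Library totals, the sum of estimated counts over genes, lay between 30148200 and 39042792. The marker genes of each tissue were detected in that tissue, with no marker at 0 in any list. In cortex and striatum 1 library each, both labelled as the same wild-type female mouse, went against the sex label. The share of counts in long nuclear genes was low in 16 libraries, by a log2 ratio of counts in the longest to the shortest quintile of nuclear genes over 3 scaled median absolute deviations below the tissue's median. These were 4 libraries in each brain region (100 mg/kg F1, M1 and M3 and R6/2 vehicle M2 by each region's own labels), 2 in tibialis (100 mg/kg M1 and wild-type F4), 3 in heart (100 mg/kg M4, wild-type F3 and M4) and 3 in liver (100 mg/kg M4, R6/2 vehicle F4, wild-type M4). Replicate labels are numbered within a tissue, so the same label in another tissue need not be the same mouse, and R6/2 vehicle M2 is a different mouse in cortex and in striatum. The ratio also moved with the arms, at -0.53 to 0.13 in wild type and 0.10 to 0.55 in R6/2 vehicle in tibialis, -0.69 to 0.20 and 0.04 to 0.34 in heart, and 1.51 to 1.97 and 1.08 to 1.63 in cortex. Its part in the results was not tested. The comparisons of arms, the tissue differences in them, the order of tissues by edgeR and the mt-Nd6 ratio were also computed without these libraries.

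In wild-type mice the members took 29.9% ± 1.10 (SD, n = 8) of all counts in heart and 22.2% ± 0.907 in tibialis. In striatum, liver and cortex they took 9.37% ± 0.635, 8.62% ± 0.652 and 7.84% ± 0.609. The 8 heart libraries (28.2 to 31.6%) and the 8 tibialis libraries (20.9 to 23.5%) each stood clear of every other tissue. Striatum (8.45 to 10.1%), liver (8.04 to 10.2%) and cortex (6.87 to 8.66%) overlapped one another. With copies added, the tibialis share was 27.0% ± 1.12.

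The order of tissues depended on the scaling. On counts scaled by the trimmed mean of M values (TMM), with the mouse as a block, 0 of 10 members differed between heart and tibialis of wild-type mice in edgeR's quasi-likelihood test, with a smallest adjusted p of 0.055, 1 member at an unadjusted p under 0.05 and a median log2 difference of 0.01; 35.9% of all genes were higher in heart. All 10 were higher in tibialis than in striatum (median log2 difference 2.48, 43.7% of all genes higher), lower in striatum than in liver (median -0.97, 42.9% of all genes lower) and higher in liver than in cortex (median 1.30, 43.2% of all genes higher). On deposited FPKM with limma, by contrast, 9 members were higher in heart than in tibialis (53.3% of all genes), 10 in tibialis than in striatum (21.5%), 5 in striatum than in liver (68.3%), and 4 were higher and 1 lower in liver than in cortex (23.2% of all genes higher). Between striatum and liver the members' median thus changed sign, from -0.97 on TMM-scaled counts to 0.17 on FPKM, where the median of all genes was itself 1.04; relative to the median of all genes it was -1.06 and -0.87. Only the step from tibialis to striatum held for all 10 members on both scales. Without the wild-type libraries low in long genes, the counts of members on TMM-scaled counts were the same at all 4 steps.

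Among the members, mt-Co1, the catalytic subunit of cytochrome c oxidase, had the highest level per length in every tissue. In heart its FPKM (fragments scaled to gene length and library total, a level per length) was 72950 ± 7528 in wild type (SD, n = 8), against 30020 ± 1190 for mt-Cytb, 24500 ± 1670 for mt-Nd1 and 22380 ± 821 for mt-Nd4. The lowest FPKM in heart were those of mt-Nd5 (11540 ± 2727) and mt-Nd6 (11360 ± 912), 2 complex I genes that do not differ beyond their spread. mt-Nd6, alone on the minus strand, was also lowest in the other 4 tissues, from 2485 in liver to 8372 in tibialis. As deposited, mt-Co2 (27120 ± 5775), mt-Co3 (25090 ± 8008) and mt-Atp6 (19120 ± 4627) had larger spreads in heart than mt-Cytb. With copies added their means were 53990, 51460 and 39650, above mt-Cytb, so their rank among the members depends on how reads were assigned.

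**Figure D1:**
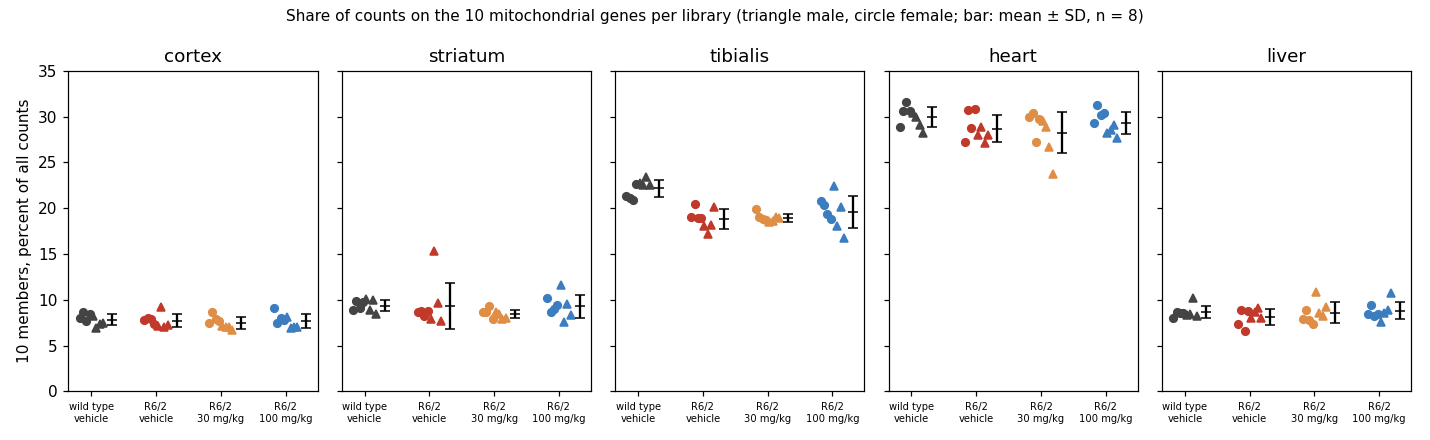
Share of all counts taken by the 10 members, in percent, for each library by tissue and arm (triangles males, circles females, bars mean ± SD, n = 8). Heart and tibialis stand above the other tissues, R6/2 tibialis lies lower than wild type, and 1 R6/2 vehicle striatum library stands alone at 15.4%.

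In tibialis muscle, all 10 mitochondrial transcripts were lower in R6/2 than in wild-type mice given vehicle. Their share of counts fell from 22.2% ± 0.907 (20.9 to 23.5%) to 18.9% ± 1.09 (17.2 to 20.4%), with no overlap between the 8 libraries of each arm. On TMM-scaled counts the members were 1.60 to 2.02-fold lower, with a median log2 fold change of -0.80 against 0.03 over all genes tested. All 10 passed the test (edgeR quasi-likelihood, Benjamini-Hochberg adjusted p under 0.05 over all genes), where 22.2% of all genes were lower and passed. In bulk tissue, fewer cells of a type and less RNA per cell cannot be told apart.

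Among the complex I genes in tibialis, mt-Nd1, a subunit of the membrane arm near the quinone site, had a level in CPM (counts relative to the TMM-scaled library total) of 24170 at the lowest, 28040 at the median and 32020 at the highest in wild type and 13260, 14110 and 15990 in R6/2 vehicle. The arms did not overlap, and the log2 fold change was -0.97 ± 0.07 (SE; adjusted p = 2.38e-12). mt-Nd2, a proton-pumping subunit of the membrane arm, lay at 21640, 25960 and 29650 CPM in wild type and at 12250, 14760 and 16190 in R6/2, also without overlap (log2 fold change -0.83 ± 0.08, adjusted p = 1.05e-09). mt-Nd4, another proton-pumping subunit, lay at 28950, 34950 and 36910 CPM in wild type and 16210, 18970 and 23210 in R6/2 (log2 fold change -0.80 ± 0.08, adjusted p = 1.37e-09). mt-Nd5, which forms the far end of the membrane arm, went from 20090, 22480 and 25400 CPM to 10710, 12750 and 15220 (log2 fold change -0.80 ± 0.09, adjusted p = 1.69e-08). Both stood apart between arms. mt-Nd6, the minus-strand gene, was at 5296, 6276 and 6724 CPM in wild type and 2925, 3372 and 4566 in R6/2, again without overlap (log2 fold change -0.79 ± 0.10, adjusted p = 5.18e-08).

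Of the other complexes, mt-Cytb, which carries the b-type haems of complex III, was at 33270, 40160 and 42180 CPM in wild-type tibialis and at 18140, 21050 and 26100 in R6/2 (lowest, median and highest; log2 fold change -0.85 ± 0.08, adjusted p = 1.90e-10). mt-Co1 lay at 90510, 107100 and 114500 CPM in wild type and 46180, 52790 and 55130 in R6/2, with the largest fold change of the 10 members (log2 fold change -1.01 ± 0.06, adjusted p = 5.61e-15). For both genes every R6/2 library was below every wild-type library. mt-Co2, which takes electrons from cytochrome c, was at 13850, 17510 and 18690 CPM in wild type and 7918, 9128 and 11740 in R6/2 (log2 fold change -0.81 ± 0.09, adjusted p = 5.29e-09). mt-Atp6 was at 11900, 14340 and 15380 CPM in wild type and 6989, 7800 and 10860 in R6/2 (log2 fold change -0.76 ± 0.09, adjusted p = 3.74e-08). These 2 did not overlap between arms either. mt-Co3, the third core subunit of complex IV, was the exception, at 13030, 18350 and 23580 CPM in wild type and 7193, 11720 and 14660 in R6/2. Its arms overlapped (log2 fold change -0.68 ± 0.14, adjusted p = 0.000252). With copies added mt-Co3 lay at 37790, 45600 and 47680 CPM in wild type and 21450, 23700 and 29580 in R6/2 and no longer overlapped (log2 fold change -0.85 ± 0.08, adjusted p = 4.33e-10).

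As deposited, 9 of the 10 members had tibialis ranges that did not overlap, and 10 of 10 with copies added, where 10.5% of all genes were lower without overlap. In the other 4 tissues 0 of 10 members had ranges that did not overlap, where the share of all genes was 11.2% in cortex, 8.45% in striatum, 1.01% in heart and 0.522% in liver. Of a list of 11 nuclear genes taken by name as copies, 9 were lower in tibialis and passed edgeR's test, with a median log2 fold change of -0.94. Among all genes 22.2% were lower and passed. Gm10288 and Gm15772 of that list had no match of at least 95% identity over 150 bases to a mitochondrial protein or ribosomal RNA gene. They are therefore not shown to be copies. Gm28437 had a log2 fold change of -0.99, Gm28661 of -0.96, Gm10925 of -0.94 and Gm28439 of -0.81. Reads of a copy and of its member cannot be told apart where the sequences are the same.

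Scaling changed the size of the tibialis difference. On FPKM, which are relative to each library's total, the members' log2 differences were -0.01 to -0.36 with a median of -0.16, and 6 of 10 passed limma's test (3.47% of all genes were lower and passed). The median of all genes on this scale was 0.63 in tibialis, against 0.10 to 0.13 in the other 4 tissues. Relative to that shift the members' median was -0.79, and on TMM-scaled counts it was -0.83 relative to the median of all genes. Marker sums here and below are CPM on plain library totals, unlike the TMM-scaled CPM of the members and the fold changes from edgeR. Fast-fibre markers (Myh4, Myh1, Actn3 and Pvalb) summed to 49300 to 65230 CPM in wild-type and 16910 to 27630 CPM in R6/2 tibialis. All 4 were lower, with a median log2 fold change of -2.12, and none was at 0. With the 10 most abundant nuclear genes left out of the total, the members' share was 26.2% in wild type and 20.3% in R6/2 vehicle, a ratio of 0.776.

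**Figure D2:**
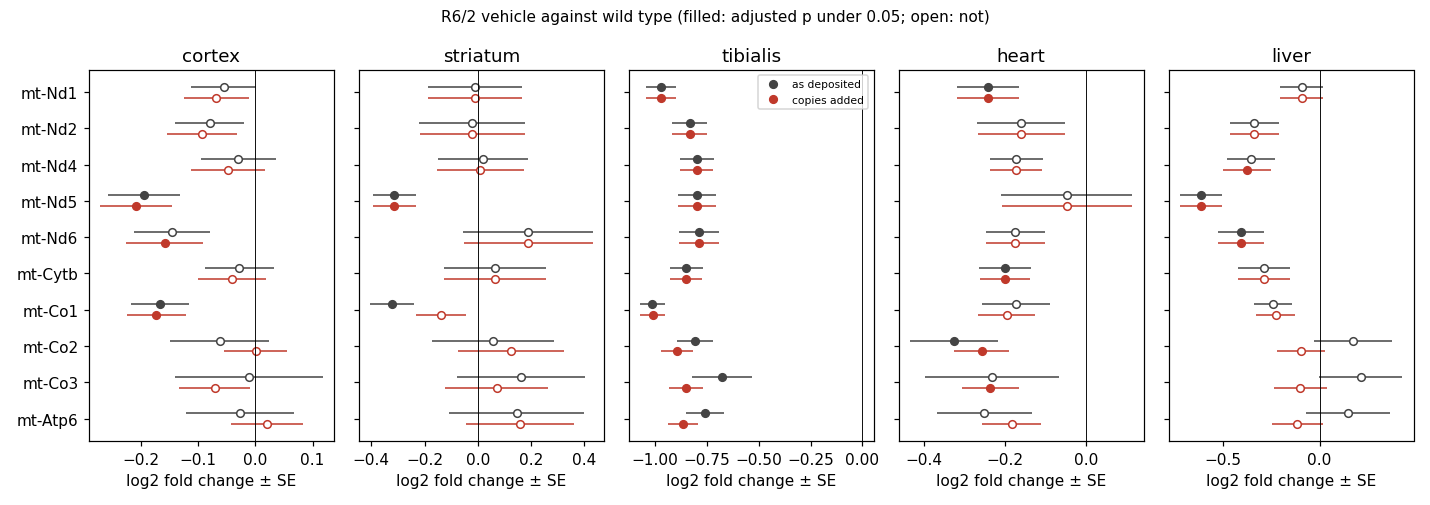
Log2 fold change ± SE of each member in R6/2 vehicle against wild type, per tissue, as deposited and with copies added (filled symbols, adjusted p under 0.05). Tibialis holds all 10 members near -0.7 to -1.0 on the log2 scale, and values in the other tissues lie closer to 0.

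Markers of other cell types of muscle were also summed in tibialis. Slow-fibre markers summed to 5.28 to 121.6 CPM in wild type and 37.9 to 389.5 CPM in R6/2, fibroblast markers to 944.5 to 1868 and 1598 to 3412 CPM, and leukocyte markers to 38.98 to 112.1 and 94.7 to 160.9 CPM. In each of these lists 0 of 4 genes passed edgeR's test, which is on the TMM scale, and none was at 0. On that scale the log2 fold changes were 0.91 to 1.07 for slow-fibre, -0.27 to 0.41 for fibroblast and -0.005 to 0.45 for leukocyte markers. The sums are on plain library totals. On FPKM, also relative to library totals, the median log2 difference of all genes in tibialis was 0.63. Their part in the members' decrease was not tested.

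The sexes were compared for the same genotype difference. In tibialis the members' median log2 fold change was -0.65 in females and -0.97 in males, with all 10 past edgeR's test in each sex, where 16% and 18% of all genes were lower and passed in females and males. The difference between the sexes itself passed for 0 of 10 members in any tissue, with a smallest adjusted p of 0.316. At an unadjusted p under 0.05 it was 5 members in tibialis, 3 in striatum and 0 in cortex, heart and liver. The share of all genes at that unadjusted threshold is not given here, so these counts have no background to be read against. Among all genes the sex difference passed for 0.0508% in tibialis, 0.00632% in heart, 1.79% in liver and 0% in cortex and striatum.

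In heart 3 of 10 members, from complexes I, III and IV, were lower in R6/2 and passed the test, where 7.46% of all genes were lower and passed, and the members' median log2 fold change was -0.19 against 0.01 over all genes. mt-Nd1 was at 20620, 24800 and 27110 CPM in wild type and 19100, 20740 and 25160 in R6/2 vehicle (lowest, median and highest; log2 fold change -0.24 ± 0.08, adjusted p = 0.0326). mt-Cytb was at 34100, 36750 and 38680 CPM in wild type and 28730, 31530 and 36480 in R6/2 (log2 fold change -0.20 ± 0.06, adjusted p = 0.0327). mt-Co2 was at 15890, 17940 and 26120 CPM in wild type and 13330, 15030 and 18810 in R6/2 (log2 fold change -0.33 ± 0.11, adjusted p = 0.0414). The arms overlapped for all 3 genes. Leaving out R6/2 vehicle F1 or M2 took the count to 0, and leaving out R6/2 vehicle M3 or M4 or wild-type F2, F3, M1 or M3 took it to 1. With copies added mt-Co3 also passed (log2 fold change -0.24, adjusted p = 0.0247, 7.45% of all genes lower). On FPKM 0 of 10 members passed limma's test in heart, with 0 at an unadjusted p under 0.05, where 1.97% of all genes were lower and passed, and the members' median relative to all genes was -0.18, against -0.20 on counts. The heart markers Myh6, Tnnt2, Tnni3 and Myl3 summed to 31790 to 36020 CPM in wild type and 26720 to 30770 CPM in R6/2 vehicle, with 4 of 4 lower.

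Markers of other cell types also moved in heart, with none at 0. Leukocyte markers summed to 77.93 to 125.4 CPM in wild type and 113.4 to 311 CPM in R6/2 vehicle, with 2 of 4 higher in edgeR's test, Cd74 (log2 fold change 1.02) and Ptprc (0.90). Fibroblast markers summed to 719.7 to 1004 and 911 to 1529 CPM, with 2 of 4 higher, the collagens Col3a1 (0.65) and Col1a2 (0.46). Red blood cell markers summed to 2269 to 5167 and 1256 to 3498 CPM, with 3 of 4 lower, among them the globin Hbb-bs (-0.77). Their part in the members' difference was not tested.

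In liver 2 complex I genes fell, where 6.32% of all genes were lower and passed. mt-Nd5 was at 4209, 5531 and 7876 CPM in wild type and 3099, 3636 and 4388 in R6/2 vehicle (log2 fold change -0.62 ± 0.11, adjusted p = 0.00029). mt-Nd6 was at 1060, 1340 and 2041 CPM in wild type and 861.6, 1026 and 1359 in R6/2 (log2 fold change -0.41 ± 0.12, adjusted p = 0.0226). Both pairs of arms overlapped. The other 8 members did not pass, with log2 fold changes from -0.36 for mt-Nd4 (adjusted p = 0.0541) to 0.21 for mt-Co3. With copies added mt-Nd4 also passed (log2 fold change -0.38, adjusted p = 0.0434, 6.3% of all genes lower). On FPKM 3 members were lower, where 2.59% of all genes were. The count was 6 without R6/2 vehicle F4, 1 without wild-type M3, 5 with DESeq2 and 1 with only the 2 arms in the fit. Liver markers summed to 78930 to 99740 CPM in wild type and 73570 to 103100 CPM in R6/2, with 0 of 4 past edgeR's test. Red blood cell markers summed to 236.9 to 452.5 and 126.3 to 321 CPM, with 4 of 4 lower, and leukocyte markers to 71.95 to 174.9 and 139.5 to 277.7 CPM, with 2 of 4 higher, Cd74 (log2 fold change 0.77) and Ptprc (0.59). None of these markers was at 0, and their part was not tested.

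As deposited, the same 2 members passed the test in both brain regions, mt-Nd5 and mt-Co1. That count was near or below the share of all genes lower in each region. In cortex, where 25.8% of all genes were lower and passed, mt-Nd5 was at 4644, 5339 and 6387 CPM in wild type and 4369, 4729 and 5121 in R6/2 vehicle (log2 fold change -0.19 ± 0.06, adjusted p = 0.00923). Cortical mt-Co1 was at 25860, 30540 and 34740 CPM in wild type and 25790, 26830 and 30510 in R6/2 (log2 fold change -0.17 ± 0.05, adjusted p = 0.00573). The arms overlapped for both genes. The count of 2 was 4 without the R6/2 vehicle library M2, which is low in long genes, where 25.1% of all genes were lower and passed. With copies added mt-Nd6 also passed in cortex (log2 fold change -0.16, adjusted p = 0.0474, 27% of all genes lower). Astrocyte markers summed to 805 to 982 CPM in wild-type and 637 to 734 CPM in R6/2 cortex. Slc1a3 (log2 fold change -0.57), Aldh1l1 (-0.46) and Aqp4 (-0.18) were lower and passed edgeR's test. Gfap went the other way and did not pass (0.20, adjusted p = 0.0876 in edgeR's test). The part of these markers was not tested.

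In striatum 19.8% of all genes were lower and passed. mt-Nd5 was at 5209, 5976 and 6884 CPM in wild type and 3630, 5083 and 5537 in R6/2 vehicle (log2 fold change -0.31 ± 0.08, adjusted p = 0.00213). mt-Co1 was at 31420, 34030 and 37550 CPM in wild type and 17820, 28560 and 31510 in R6/2 (log2 fold change -0.32 ± 0.08, adjusted p = 0.00231). With copies added mt-Co1 had a log2 fold change of -0.14 (adjusted p = 0.244), so only mt-Nd5 kept its call. Markers of striatal projection neurons (Drd1, Drd2, Adora2a and Ppp1r1b) summed to 1481 to 2848 CPM in wild type and 668 to 996 CPM in R6/2 vehicle, with 4 of 4 lower and none at 0, and their part was not tested. On FPKM 0 of 10 members passed limma's test in either brain region. There 0 members in cortex and 2 in striatum had an unadjusted p under 0.05, and 19.2% of all genes in cortex and 13.6% in striatum were lower and passed.

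One R6/2 vehicle striatum library, M2, stood apart from the other 7 in 9 of the 10 members and had a low share of counts in long genes. Its members took 15.4% of counts, and 23.0% with copies added, and without it the R6/2 vehicle share was 8.49% ± 0.658 instead of 9.35% ± 2.51. In M2 mt-Cytb was at 36060 CPM, against an R6/2 vehicle median of 10940 and a wild-type maximum of 14720. mt-Co1 went the other way as deposited, at 17820 CPM the lowest of its arm, but was the highest at 47930 CPM with copies added. mt-Nd5, the member not among these 9, has no such copy and was not high in M2 either. No R6/2 vehicle library held more than 5537 CPM of it, against a wild-type median of 5976. The log2 ratio of mt-Nd6 to mt-Nd5 had an SD of 0.94 in R6/2 vehicle striatum, with M2, and 0.13 in wild type. Without M2, 9 of 10 members were lower in R6/2 striatum and passed edgeR's test, where 22.1% of all genes were lower and passed.

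**Figure D3:**
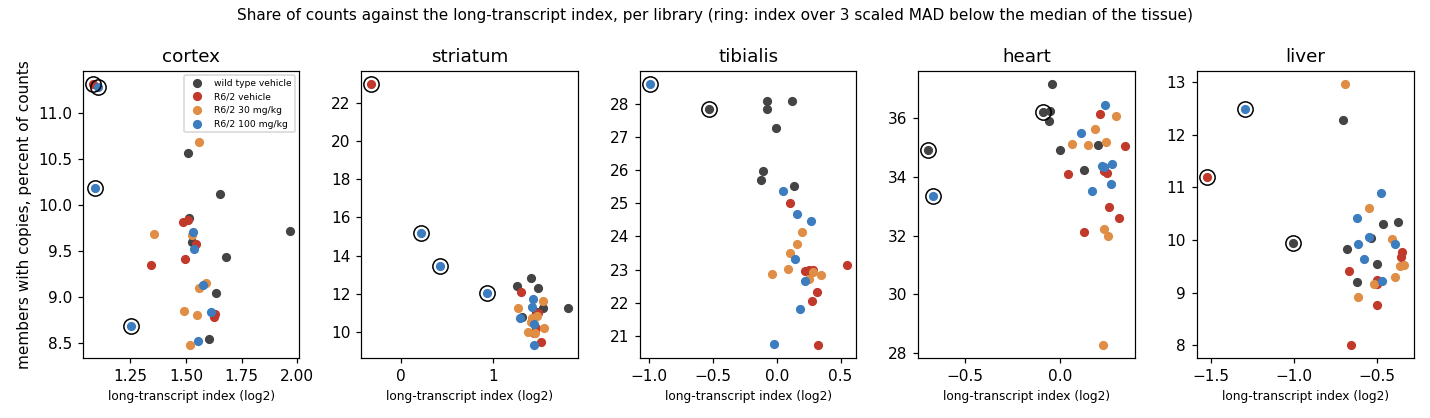
Share of counts taken by the members with copies added, in percent, against the log2 ratio of counts in the longest to the shortest quintile of nuclear genes, for each library by tissue and arm. Rings mark the 16 libraries over 3 scaled median absolute deviations below the tissue's median, among them the R6/2 vehicle striatum library at 23.0%.

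Without all 16 libraries low in long genes, the number of members lower in R6/2 vehicle was 7 in cortex, 9 in striatum, 10 in tibialis, 3 in heart and 6 in liver. The shares of all genes lower and past edgeR's test were then 27.2%, 26.1%, 22.8%, 9.13% and 6.06%. The members' median log2 fold changes were -0.15 in cortex, -0.30 in striatum, -0.79 in tibialis, -0.20 in heart and -0.36 in liver. In striatum, mt-Nd4, mt-Nd6, mt-Cytb, mt-Co2 and mt-Atp6 had positive log2 fold changes with all libraries (0.02 to 0.19, none past the test) and negative ones past the test without these libraries, from -0.28 to -0.39.

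Tissues were compared directly in 1 fit over the 80 libraries of the vehicle arms, with each mouse as a block. The genotype difference was larger in tibialis than in heart for 7 members, where 9.34% of all genes were lower in that direction and passed. mt-Co1 differed most (log2 difference of fold changes -0.84 ± 0.19, adjusted p = 0.000694 in edgeR's test), followed by mt-Nd5 (-0.76, adjusted p = 0.002) and mt-Nd1 (-0.73, adjusted p = 0.0033). mt-Nd2, mt-Cytb, mt-Nd4 and mt-Nd6 differed by -0.61 to -0.67. mt-Atp6, mt-Co2 and mt-Co3, whose reads are shared with nuclear copies over nearly their whole length, had differences of -0.52, -0.49 and -0.46 (adjusted p of 0.198, 0.21 and 0.281). With copies added all 10 members passed, at -0.61 to -0.81, where 9.36% of all genes did. Without the libraries low in long genes all 10 passed as deposited, at -0.52 to -0.74, where 11.2% of all genes did. Without the 2 libraries that go against their sex label the count was 6, as mt-Nd6 lost its call (adjusted p = 0.0533).

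Between cortex and striatum 0 of 10 members differed in the genotype effect (smallest adjusted p 0.851, 0 at an unadjusted p under 0.05, 0 in limma with the mouse as a random block), where 1.04% of all genes were lower and passed. That fit holds the striatum library M2. Without the libraries low in long genes 0 of 10 passed, with 1 at an unadjusted p under 0.05, a smallest adjusted p of 0.312 and a median log2 difference, cortex minus striatum, of 0.24, where 1.82% of all genes were lower and passed. Between liver and heart 0 of 10 passed edgeR's test, where 2.97% of all genes were lower and passed. There mt-Nd5 was closest, with a log2 difference of -0.54 and an adjusted p of 0.0676, the only member with an unadjusted p under 0.05. It was the 1 member past the test in limma with the mouse as a random block. Without the libraries low in long genes its difference was -0.32 (adjusted p = 0.235) and 0 of 10 passed (2.98% of all genes were lower and passed). Over any tissue, the genotype effect differed for 9 members as deposited (51.7% of all genes) and for 10 with copies added (51.8% of all genes), and mt-Co3 was the member that did not pass as deposited (adjusted p = 0.0703).

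The compound was compared with vehicle within R6/2 mice. These comparisons and the genotype comparison share the R6/2 vehicle libraries, so they are not independent of each other. At 30 mg/kg 0 of 10 members passed edgeR's test in any tissue, nor did any other gene (0% of all genes). At an unadjusted p under 0.05 it was 3 members in cortex, 4 in striatum, 1 in tibialis, 0 in heart and 1 in liver, and DESeq2 called 1 member in liver and 0 elsewhere. The vehicle arm of striatum holds library M2. The unadjusted counts of this paragraph have no share of all genes at the same threshold beside them, so they are not read as a result about the members. At 100 mg/kg 0 members passed in cortex, striatum, tibialis and heart, where 0.00571%, 0%, 0% and 0.0126% of all genes passed, and at an unadjusted p under 0.05 it was 1 member in tibialis and 0 in the other 3 tissues. Between the doses 0 of 10 members passed in any tissue, with 1 member in each tissue at an unadjusted p under 0.05, and among all genes it was 0.0067% in liver and 0% elsewhere. DESeq2 called 0 members at 100 mg/kg outside liver and 0 between the doses.

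In liver 1 member, mt-Nd5, rose at 100 mg/kg, where 1.39% of all genes rose and 2.06% passed in either direction. Its CPM was 3099, 3636 and 4388 in R6/2 vehicle (lowest, median and highest), 3433, 4785 and 7327 at 30 mg/kg, and 4082, 4866 and 5239 at 100 mg/kg, beside 4209, 5531 and 7876 in wild type. All arms overlapped. The log2 fold change was 0.40 ± 0.11 at 100 mg/kg (adjusted p = 0.0471 in edgeR's test) and 0.42 ± 0.11 at 30 mg/kg (adjusted p = 0.60). The call at 100 mg/kg was lost without the 3 liver libraries low in long genes (log2 fold change 0.37, adjusted p = 0.119), and on FPKM mt-Nd5 passed limma's test at 0.41 (adjusted p = 0.025), where 2.02% of all genes rose. Of the other members at 100 mg/kg in liver, mt-Nd1 had a log2 fold change of 0.31 (adjusted p = 0.151), mt-Nd2 of 0.29 and mt-Nd6 of 0.27.

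Elsewhere the members' log2 fold changes against R6/2 vehicle at 100 mg/kg ran from -0.06 to 0.08 in cortex, -0.23 to 0.14 in striatum, -0.05 to 0.19 in tibialis and -0.02 to 0.24 in heart. The share of counts in tibialis was 18.9% ± 1.09 on vehicle, 18.9% ± 0.451 at 30 mg/kg and 19.6% ± 1.74 at 100 mg/kg (SD, n = 8 each), against 22.2% ± 0.907 in wild type. In heart the shares of the R6/2 arms were 28.7% ± 1.43, 28.3% ± 2.25 and 29.3% ± 1.21, in liver 8.16% ± 0.863, 8.61% ± 1.10 and 8.80% ± 0.930, and in cortex 7.71% ± 0.695, 7.46% ± 0.641 and 7.69% ± 0.736. In striatum they were 9.35% ± 2.51, 8.45% ± 0.476 and 9.28% ± 1.23, the first of these raised by library M2.

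mt-Co3 had the lowest log2 fold change of the members at 30 mg/kg in all 5 tissues, and its reads were divided between the gene and Gm28437 in a way that followed individual mice. In cortex its CPM was 3225, 4645 and 6400 in R6/2 vehicle (lowest, median and highest) and 2533, 3626 and 5585 at 30 mg/kg, with overlap (log2 fold change -0.39, adjusted p = 0.96). In striatum it was 4379, 5309 and 17940 on vehicle and 2397, 4003 and 5492 at 30 mg/kg (log2 fold change -0.74, adjusted p = 0.745). In tibialis (-0.32), heart (-0.31) and liver (-0.24) the log2 fold changes were also below 0. With copies added the same values were -0.11 in cortex, -0.38 in striatum, 0.02 in tibialis, -0.01 in heart and -0.06 in liver.

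At 30 mg/kg the share of mt-Co3 plus Gm28437 counts that was assigned to mt-Co3 had a lower mean in males than in females, by a difference larger than the spread in 4 tissues and within it in liver (no test was run). In tibialis it was 29.0% ± 1.77 in the 4 males and 48.7% ± 1.78 in the 4 females (SD), and in heart 30.3% ± 6.91 in males and 51.1% ± 1.93 in females. The brain regions showed the same order, at 29.5% ± 1.86 in males and 45.8% ± 3.23 in females for cortex and 27.7% ± 4.09 and 44.7% ± 2.69 for striatum. In liver it was 52.0% ± 16.6 and 54.1% ± 18.6. Counted by mouse, over the log2 ratio of mt-Co3 to mt-Atp6, 7 mice were among the 8 lowest of 32 in all 5 tissues and 23 mice in none. These 7, all male, were the 4 males at 30 mg/kg, 1 R6/2 vehicle mouse and 2 wild-type mice. What else they share was not tested. Of the remaining mice, wild-type female 955 was among the 8 lowest in cortex, striatum and liver, and wild-type female 6170 in tibialis and heart. The cortex and striatum libraries labelled as mouse 6170 are those that go against their sex label. Whether they come from that mouse was not tested.

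**Figure D4:**
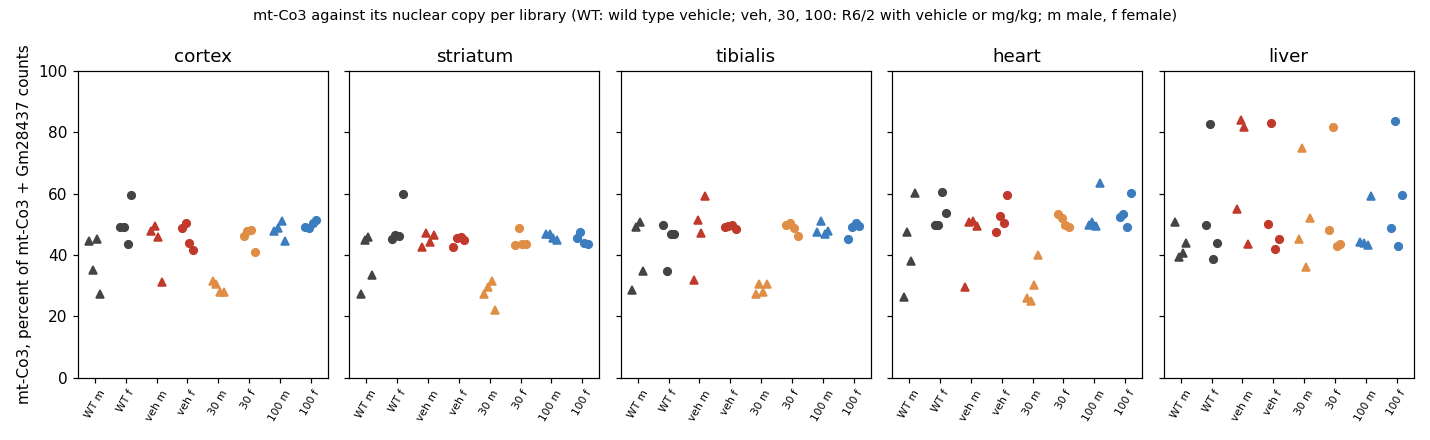
Percent of the counts of mt-Co3 and its nuclear copy Gm28437 that were assigned to mt-Co3, for each library by tissue, arm and sex. In cortex, striatum, tibialis and heart the 4 males at 30 mg/kg lie at 22.1 to 40.1%, below the 4 females of the same tissue.

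A second kind of split was seen for mt-Co2. In 20 libraries over 55% of the counts of mt-Co2 and Gm28661 were assigned to mt-Co2, against 36.3 to 49.95% in the others. Of these 20, 11 were liver libraries, where 7 lay at 83.1 to 85.4%, and 6 were heart libraries (57.9 to 62.8%), 3 of them wild type and 1 R6/2 vehicle. The other 3 were 1 library each of cortex, striatum and tibialis. In the deposited column names the 6 heart libraries and 1 liver library carry consecutive numbers, as do the 7 liver libraries at 83.1 to 85.4%, another 3 liver libraries, and the 3 libraries of cortex, striatum and tibialis. What these numbers stand for is not given in the sources used here, and their part was not tested. The mt-Co2 difference in heart was -0.26 on the log2 scale with copies added (adjusted p = 0.011 in edgeR's test), and the SE of that difference was smaller than as deposited (0.07 against 0.11).

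The log2 ratio of mt-Nd6 to mt-Cytb counts, the minus-strand gene to its plus-strand neighbour, was also followed. The counting strand is not given and antisense reads could be counted for mt-Nd6, so the ratio does not measure the balance of the strands. In cortex the ratio was -2.84 at the lowest, -2.74 at the median and -2.70 at the highest in wild type and -2.99, -2.88 and -2.74 in R6/2 vehicle. The arms overlapped, and the means differed by -0.12 ± 0.034 (SE; two-sided exact permutation test with arm labels exchanged within each sex, 4900 assignments, p = 0.00449, adjusted p = 0.0306 over 15 comparisons). At 30 mg/kg the cortical ratio was -2.89, -2.75 and -2.69, a difference from vehicle of 0.12 (exact permutation p = 0.00816, adjusted p = 0.0306). At 100 mg/kg it was -2.88, -2.73 and -2.60, a difference of 0.13 (exact permutation p = 0.0171, adjusted p = 0.0514), which missed the threshold.

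In liver the ratio was -3.32, -3.15 and -3.01 in R6/2 vehicle, -3.10, -2.97 and -2.90 at 30 mg/kg and -3.17, -2.93 and -2.68 at 100 mg/kg. The ratio was higher at both doses, by 0.18 at 30 mg/kg (exact permutation p = 0.00163, adjusted p = 0.0245) and by 0.23 at 100 mg/kg (exact permutation p = 0.00694, adjusted p = 0.0306), with overlap. Against wild type the difference in liver was -0.095 (exact permutation, adjusted p = 0.345). In the other tissues no comparison had an adjusted p below 0.18. With mt-Nd5 in place of mt-Cytb, the 4 differences that passed turned their sign and lost their call, at 0.03 and -0.02 in cortex and -0.17 and -0.12 in liver (exact permutation, adjusted p of 0.27 or more), so they hold for mt-Cytb as partner and not for mt-Nd5. mt-Nd5 itself passed edgeR's test as lower in R6/2 cortex and liver and as higher in liver at 100 mg/kg. The ratio to mt-Nd5 was not computed without the libraries low in long genes.

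**Figure D5:**
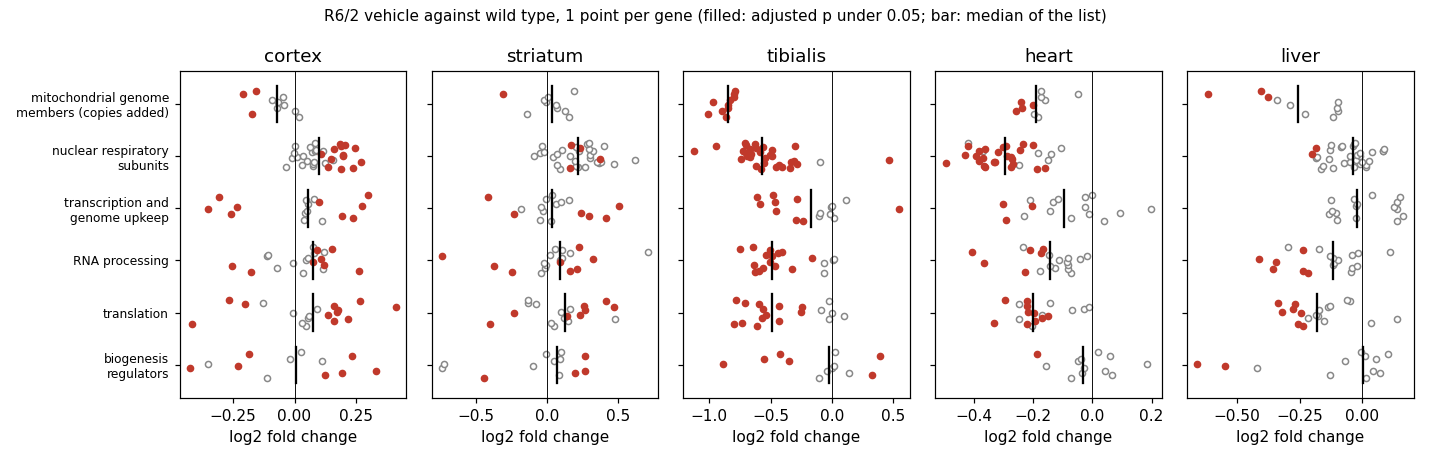
Log2 fold change in R6/2 vehicle against wild type of each gene in 6 lists, by tissue (bar, median of the list). The lists are the members (copies added) and nuclear genes: respiratory subunits, transcription and genome upkeep, RNA processing, translation and biogenesis regulators. In tibialis the nuclear subunits lie mostly below 0, with a median of -0.57.

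Nuclear genes that build or express the same complexes were described beside the members. Of 32 nuclear respiratory subunits in tibialis, 30 were lower and 1 higher in R6/2 vehicle, with a median log2 fold change of -0.57; the shares of all genes were 22.2% lower and 23.6% higher. Uqcrc1 (-0.94) and Uqcrc2 (-0.70), core proteins of complex III, Ndufa10 of complex I (-0.67) and Atp5a1 of complex V (-0.57) were lower, whereas Cox8a, a complex IV subunit, was higher (0.46, adjusted p = 0.0025 in edgeR's test) and is named after its value was seen. In heart 25 of 32 were lower and 0 higher (median -0.30; 6.96% of all genes higher), among them Ndufa10 (-0.27), Uqcrb (-0.42), Ndufv2 (-0.36) and Ndufa9 (-0.29). In liver 2 of 32 were lower, Sdha (-0.18) and Ndufs1 (-0.20), and 0 higher, near the shares of all genes (6.32% lower and 6.5% higher). In cortex 13 of 32 were higher and 0 lower (median 0.10; 28.1% of all genes higher and 25.8% lower), and in striatum 4 of 32 were higher and 0 lower (median 0.22), below the 22.6% and 19.8% of all genes. The differences between tissues were not tested for this list. Without the libraries low in long genes the counts lower and higher were 30 and 1 in tibialis, 29 and 0 in heart, 7 and 0 in liver, 1 and 12 in cortex, and 5 and 9 in striatum. Sdha, the flavoprotein of complex II, was higher in cortex (0.25) and striatum (0.23), and Atp5b, the catalytic subunit of complex V, in cortex (0.24).

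Lists of genes that transcribe, process and translate mitochondrial RNA were described the same way in tibialis, where 22.2% of all genes were lower and 23.6% higher. Of 16 genes for transcription and upkeep of the mitochondrial genome, 8 were lower and 1 was higher, with a median of -0.17. Tfam, which packages the genome and starts transcription, had a log2 fold change of -0.46, Tefm, the elongation factor, of -0.59, Twnk, the replicative helicase, of -0.48 and Top1mt, a topoisomerase, of -0.61. The gene that was higher, named after its value was seen, was Primpol (0.55), a primase. Of 19 RNA processing genes measured, 15 were lower and 0 higher (median -0.49), among them Grsf1 (-0.64), which binds RNA in mitochondrial granules, and the FASTK family members Fastk (-0.63) and Tbrg4 (-0.74). Of 18 translation genes 13 were lower and 0 higher (median -0.49), among them the elongation factor Tufm (-0.78), Gfm2 (-0.79), which acts in ribosome recycling, and the ribosomal proteins Mrps27 (-0.57) and Ptcd3 (-0.60). Of 12 biogenesis regulators 4 were lower and 2 higher (median -0.02), the nearest of these lists to the shares of all genes. The coactivator Ppargc1b (-0.89), the kinase subunit Prkaa2 (-0.56) and the deacetylase Sirt3 (-0.42) were lower, and the deacetylase Sirt1 (0.39) was higher. Pprc1 (-0.35), a further coactivator of the family, and Gabpa (0.32), a transcription factor, also passed and are named after their values were seen.

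In heart and liver 0 genes of these 4 lists were higher, and in both brain regions genes passed the test in both directions. Among all genes 7.46% were lower in heart and 6.32% in liver, 28.1% were higher and 25.8% lower in cortex, and 22.6% were higher and 19.8% lower in striatum. In heart 6 of 19 RNA processing, 10 of 18 translation and 3 of 16 transcription and upkeep genes were lower and 0 were higher, among them Hsd17b10 (-0.37), a subunit of mitochondrial RNase P, Tufm (-0.29) and Tefm (-0.30). In liver 6 of 19 RNA processing and 7 of 18 translation genes were lower, among them Lrpprc (-0.35), which stabilises mitochondrial messenger RNAs, Fastkd2 (-0.36), Gfm1 (-0.23) and Gfm2 (-0.25). The liver coactivators Ppargc1a (-0.55) and Ppargc1b (-0.66) were lower too. In cortex 8 translation genes were higher and 3 lower, with Mtrf1l, a release factor, at 0.41 and Gfm2 at -0.42. In striatum, in the fit that holds library M2, 6 translation genes were higher and 2 lower. Ptcd1, an RNA processing gene, was lower there (-0.74), whereas Ssbp1, a DNA-binding protein of the transcription and upkeep list, was higher (0.51). Counts of these lists without the libraries low in long genes are not given here. In liver at 100 mg/kg, where 1.39% of all genes rose, Pnpt1 (0.24), an RNA-degrading enzyme, Gfm1 (0.23) and Gfm2 (0.21) rose, the only listed nuclear genes past edgeR's test in any comparison of a dose with vehicle.

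Over the 20 group means of tissue and arm, the 5 nuclear genes outside these lists whose mean log2 CPM followed the members' mean most closely were Atp5g1 (Pearson's r of 0.989), Tmem143 (0.988), Pdhb (0.984), Kcnj8 (0.984) and Ogdh (0.984), among 9351 genes. Atp5g1 encodes a ring subunit of complex V, and Pdhb and Ogdh encode subunits of mitochondrial dehydrogenase complexes. Groups of one tissue share that tissue's level, so these values mostly follow the difference between tissues.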

How the data were processed

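RNA was measured in 160 libraries. Per the labels' protocols, total RNA was extracted from frozen tissue with the miRNeasy kit and checked on a Bioanalyzer, and libraries were made from enriched RNA fractions. CASAVA 1.8.2 is named per the submitters' processing notes; no aligner, quantifier, counting strand, build or annotation is given in these sources. The authors deposited estimated counts (expected counts, per the file headers 1 column per library), of which 68.1% of values above 0 were whole within 1e-06, and FPKM values of the same libraries. Estimated counts divide reads between genes of like sequence by a model, so values of members with near-identical nuclear copies depend on that division.

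Identifiers were matched to GENCODE M21 symbols (42462 of 43432). Expected counts were rounded and tested per tissue with edgeR 4.0.16 in R 4.3.3 (filterByExpr, TMM, quasi-likelihood, arm and sex as terms, all 32 libraries), with Benjamini-Hochberg adjustment over all genes and a threshold of 0.05. The SE is the log2 fold change divided by the square root of F. CPM use TMM-scaled totals; marker sums use plain totals. Differences between tissues were fitted with the mouse as a block. The mt-Nd6 to mt-Cytb ratio was tested by exact permutation within sex. FPKM were tested as log2(FPKM + 0.1), mean FPKM of at least 0.5, with limma 3.58.1, which understates changes of low genes. DESeq2 1.42.0 was an alternative, as were other size factors, no filter, a replicate block, 2-arm fits, nuclear library sizes and leaving out libraries. The test was checked on counts simulated from the tibialis libraries, with a small set of genes changed in random directions. That check cannot speak to how scaling sets the size of the tibialis difference.

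The members and lists were chosen with earlier results of these data known. All members are named, and of each list, per tissue, the 4 lowest p-values at most among genes that passed and any gene past a dose test. The addition of copies (99% identity, 150 bases, from blastn 2.17.0), the 55% limit for mt-Co2, the minimum mean count of 50 for the long-gene ratio, the removal of libraries against their sex label, the removal of libraries low in long genes from the fits across tissues and the look at mt-Co3 by mouse were chosen after seeing the data. Replicate numbers did not pair the samples: the correlation of deviations was -0.39 to 0.30. Nothing in the labels used here ties mice to litters or days, and each tissue's 8 libraries per arm come from 8 mice. Total counts of 30148200 to 39042792 gave each member 861.6 CPM or more in every library of the vehicle arms, so counting error is small beside the spread between mice.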

Additional observations from a re-analysis of the deposited data

Results flagged for a closer look

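A library was listed when its distance to the nearest of the other 7 of its group, divided by the group's range, passed Dixon's 95% critical value. This held in 38 of 147 groups and 14 libraries, where chance gives about 1 in 20 groups. Members share libraries, so these are not separate events.

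In striatum, R6/2 vehicle M2 stood apart in the members' share (15.37%), the log2 ratio of mt-Nd6 to mt-Cytb (-2.64) and the CPM of mt-Nd1 (20410), mt-Nd2 (18920), mt-Nd4 (27090), mt-Nd6 (5784), mt-Cytb (36060), mt-Co1 (17820, low), mt-Co2 (19570), mt-Co3 (17940) and mt-Atp6 (20410). The cortex library labelled R6/2 vehicle M2, from another mouse, was high in share (9.169%), mt-Nd4 (9889 CPM), mt-Nd6 (1693 CPM), mt-Cytb (11340 CPM) and mt-Atp6 (5598 CPM). Both libraries were low in long genes. Wild-type F4 was high in cortex for mt-Atp6 (6015 CPM). The mt-Nd6 to mt-Cytb ratio was low at 30 mg/kg in cortex M1 (-2.888) and striatum M3 (-3.103).

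In tibialis, R6/2 vehicle M2 was low in mt-Nd2 (12250 CPM) and 30 mg/kg F1 was high in share (19.95%). In heart, wild-type M4, also low in long genes, was low in mt-Nd2 (13510 CPM), mt-Nd5 (9008 CPM), mt-Nd6 (4778 CPM), mt-Co1 (87220 CPM) and the mt-Nd6 to mt-Cytb ratio (-2.946). Wild-type F1 was low in mt-Nd1 (20620 CPM), R6/2 vehicle F2 was high in mt-Nd1 (25160 CPM) and mt-Nd2 (23020 CPM), and 100 mg/kg M4 was low in the ratio (-2.95). In liver, wild-type M3 was high in share (10.16%), mt-Nd4 (13630 CPM) and mt-Cytb (15420 CPM), R6/2 vehicle F4, low in long genes, was high in mt-Nd1 (7374 CPM), mt-Nd2 (8909 CPM), mt-Nd4 (11220 CPM) and mt-Cytb (13590 CPM), and 30 mg/kg M1 was high in mt-Nd5 (7327 CPM).

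The genotype effect differed between tibialis and heart, by the interaction test in edgeR, for mt-Nd1 (-0.7321), mt-Nd2 (-0.6743), mt-Nd4 (-0.6185), mt-Nd5 (-0.755), mt-Nd6 (-0.6061), mt-Cytb (-0.6436) and mt-Co1 (-0.8393), as log2 differences of tibialis minus heart.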

How the results depend on the processing

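In tibialis the count of members lower in R6/2 vehicle was 10 under every alternative run except FPKM, where it was 6 (8 with copies added); the members' direction was negative in all of them. In the other 4 tissues counts moved by more than 1.5 times, and the cause was not tested. On FPKM it was 0 in cortex, striatum and heart, also with copies added. Without the libraries low in long genes it was 7 in cortex, 9 in striatum and 6 in liver, and with copies added as well 6, 10 and 6, and 6 in heart. With copies added it was 1 in striatum. Heart had 0 with no filter. Liver had 5 with DESeq2 and 1 with only the 2 arms in the fit, and DESeq2 called 1 member in liver at 30 mg/kg. Leaving out single libraries gave 2 to 4 in cortex (4 without R6/2 vehicle M2), 2 to 9 in striatum (9 without R6/2 vehicle M2), 10 in tibialis, 1 to 6 in liver, and 0 to 4 in heart (for liver, 6 without R6/2 vehicle F4, 1 without wild-type M3).

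The replicate numbers did not pair the samples, as no more than 3 of 8 libraries correlated best with their own number. With the replicate block the count was 5 in heart and 0 for liver at 100 mg/kg. That liver count was also 0 with no filter, without the libraries low in long genes, and without them with copies added, and was 2 on FPKM and 3 on FPKM with copies added.

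On FPKM the wild-type tissue steps were 9 members higher in heart than tibialis, 5 higher in striatum than liver (10 lower on counts) and, net, 3 higher in liver than cortex. The liver minus heart difference was -1 member in limma with a random block. Without R6/2 vehicle M2, without all libraries low in long genes, and so with copies added, the striatal log2 fold changes were for mt-Nd4 -0.28, -0.28 and -0.28, mt-Nd6 -0.30, -0.31 and -0.31, mt-Cytb -0.30, -0.30 and -0.30, mt-Co2 -0.39, -0.39 and -0.25, and mt-Atp6 -0.38, -0.38 and -0.24. With copies added and without libraries low in long genes mt-Co3 was -0.29. Over single libraries left out, the striatal values ran from -0.28 to 0.081 for mt-Nd4, -0.30 to 0.27 for mt-Nd6, -0.30 to 0.13 for mt-Cytb, -0.39 to 0.14 for mt-Co2 and -0.38 to 0.24 for mt-Atp6. The mt-Nd6 ratio passed without those libraries in cortex at 100 mg/kg (0.14, exact permutation adjusted p = 0.0257) and striatum at 30 mg/kg (0.12, adjusted p = 0.0347). With mt-Nd5 as partner it was 0.031 (genotype) and -0.021 (30 mg/kg) in cortex and -0.17 (30 mg/kg) and -0.12 (100 mg/kg) in liver. The tibialis share ratio was 0.776 without the 10 most abundant nuclear genes.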
